A study of Mus musculus with 8 samples.

Results

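Oxidative phosphorylation genes were followed across RNA-seq libraries of the mouse medial prefrontal cortex (mPFC). Members were the protein-coding entries of the gene count table whose names begin with Nduf, Uqcr, Cox4, Cox5, Cox6, Cox7, Cox8, Atp5, Sdh or mt-, and which had at least 10 reads in each of the 8 libraries. A total of 111 entries had such a name and 107 of these passed the read minimum, out of 54532 genes in the table. Of the 107 members, 94 are encoded in the nucleus and 13 in the mitochondrial genome. The nuclear members comprised 36 subunits of complex I, 4 of complex II, 8 of complex III, 17 of complex IV, 16 of complex V and 13 assembly or associated factors. The mitochondrial members comprised 7 subunits of complex I, 1 of complex III, 3 of complex IV and 2 of complex V.

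The libraries came from adult male C57BL/6 mice trained in conditioned place preference (CPP), in which an animal learns to prefer the compartment where it received a drug, here the psychostimulant methamphetamine. The retrieval group had 4 libraries and the non-retrieval group had 4 libraries. Each library was made from a pool of 2 to 3 mice whose mPFC was taken 1 h after the CPP test. No label states how the non-retrieval group was treated, and re-exposure to the apparatus and retrieval of the memory cannot be told apart.

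Oxidative phosphorylation passes electrons from NADH and succinate along complexes I to IV of the mitochondrial inner membrane, and the proton gradient this builds drives ATP synthase, complex V. Complexes I, III, IV and V are mosaics of subunits from the nuclear and mitochondrial genomes, whereas complex II is wholly nuclear. In the cortex this pathway supplies most of the ATP that neurons spend on restoring ion gradients after synaptic activity and firing.

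Library totals ran from 25013503 to 29547978 counts, and between 23474 and 24671 genes per library had a count. The group labels were checked with immediate early genes. Fos, a transcription factor subunit induced by neuronal activity, averaged 60.8 ± 4.28 CPM in retrieval libraries and 13.1 ± 4.37 CPM in non-retrieval libraries (SD, n = 4 each), and Egr1 and Arc were likewise higher in all 4 retrieval libraries. CPM are counts scaled to a library of common size. Across all 16745 genes tested with edgeR's quasi-likelihood test, 615 (3.67%) were higher and 151 (0.902%) were lower in retrieval libraries at an adjusted p under 0.05. Among cell type markers, 7 of 12 myelin genes were called higher, with a summary level (mean log2 CPM) of 6.95 to 7.41 in retrieval libraries against 6.72 to 6.92 in non-retrieval libraries. Of 6 parvalbumin interneuron markers, 3 (Pvalb, Syt2 and Hapln4) were called lower, with a summary level of 6.10 to 6.23 in retrieval libraries against 6.27 to 6.47 in non-retrieval libraries. Striatal projection neuron markers stood apart in retrieval replicate 2, at 4.95 with 4.04 to 4.19 in the rest of its group and 3.88 to 4.08 among non-retrieval libraries. In pooled tissue, fewer cells of a type and less RNA per cell cannot be told apart.

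No oxidative phosphorylation gene passed the test in either direction. The count of members called by edgeR was 0 of 107, and it was also 0 with DESeq2 and with limma-voom. At an unadjusted edgeR p under 0.05, 1 member was higher in retrieval libraries (mt-Co2), where 11.2% of all tested genes were. At the same threshold 15 members were lower, all of them nuclear, or 16.0% of the nuclear members, where 7.27% of all tested genes were. DESeq2 and limma-voom placed 14 and 24 members below that unadjusted threshold.

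The nuclear members lay slightly below non-retrieval levels as a body. Their log2 fold changes, retrieval over non-retrieval, had a median of -0.10, and 81 of 94 (86.2%) were below 0, whereas all tested genes had a median of -0.0095 with 52.2% below 0. The mitochondrial members had a median of 0.02 with 4 of 13 below 0. In 8 nuclear members every retrieval library was below every non-retrieval library, or 8.51% of them, where 4.53% of all tested genes had this order. No member had the opposite order, which 6.59% of tested genes had. Under 3 other scalings of library size the nuclear median was -0.10 to -0.13. The mitochondrial median was 0.019 to 0.022 under 2 of these and -0.0069 with upper-quartile factors.

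**Figure D1:**
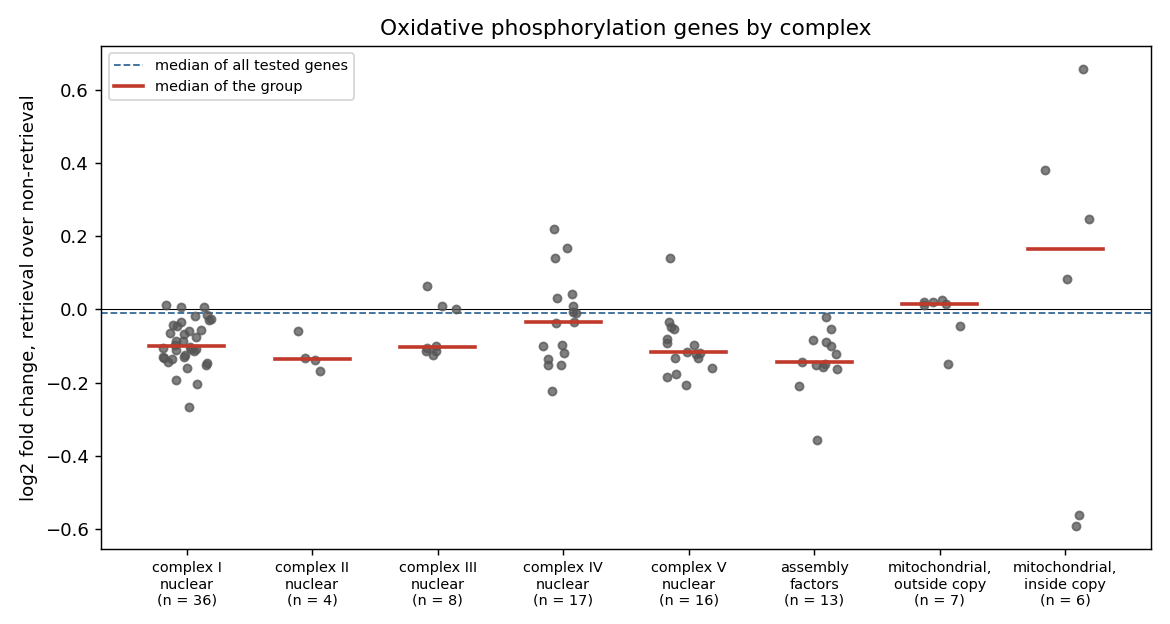
Log2 fold change (retrieval over non-retrieval) of each oxidative phosphorylation gene, by complex. Each point is 1 gene, the red bar is the median of its group and the dashed line is the median of all 16745 tested genes. Nuclear members of complexes I, II, III and V and the assembly factors had medians of -0.10 to -0.14. Complex IV, which included low-count tissue isoforms, had -0.035. The mitochondrial genes are split into the 6 neighbours from mt-Co2 to mt-Nd4l (inside copy) and the 7 others (outside copy). No annotated copy of mt-Atp8, 1 of the 6, was found, and mt-Co1 and mt-Nd4 of the 7 are partly covered by a chromosome 1 copy.

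The shift of the nuclear members was not even over the libraries. Their mean log2 CPM was 5.56, 5.58, 5.55 and 5.58 in the retrieval libraries 1 to 4, against 5.63, 5.54, 5.69 and 5.75 in the non-retrieval libraries 1 to 4. The retrieval libraries lay close together, while non-retrieval replicates 3 and 4 were high and non-retrieval replicate 2 was below all retrieval libraries, so the groups overlapped. Non-retrieval replicate 4 held the highest value of 39 of the 94 nuclear members and non-retrieval replicate 3 that of 29. Without non-retrieval replicate 4 the nuclear median was -0.072 with 71 of 94 below 0, and the medians of complexes I and IV were -0.055 and 0.0072. Without retrieval replicate 2, the library with high striatal markers, the nuclear median was -0.096 with 84 of 94 below 0. Left-out libraries also moved the count of members at an unadjusted p under 0.05 from the 16 found with all libraries. It was 6 and 10 when retrieval replicates 3 and 4 were left out in turn, and 33, 5 and 7 when the same was done with non-retrieval replicates 2, 3 and 4.

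**Figure D2:**
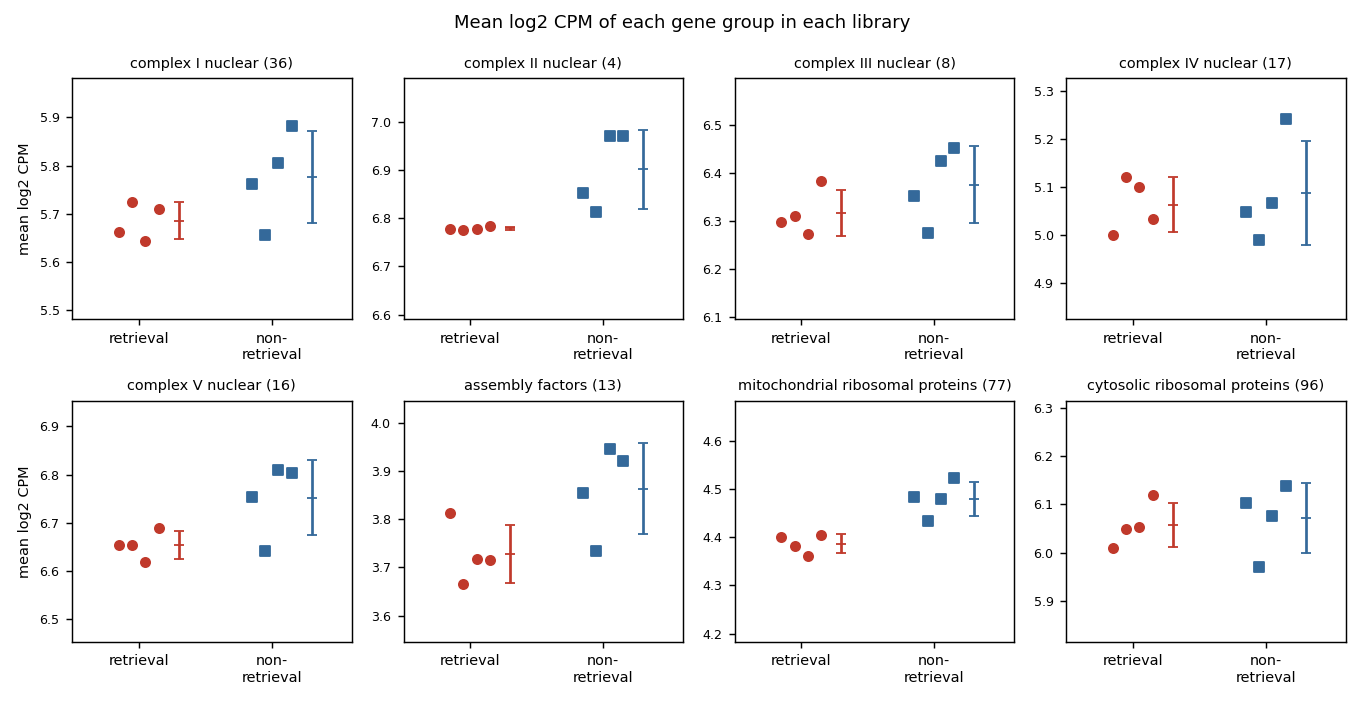
Mean log2 CPM over the genes of each group in each library, with retrieval libraries (circles) left of non-retrieval libraries (squares) and the mean ± SD of 4 libraries beside them; panels share a span of 0.5 on the y axis. For complex II and the mitochondrial ribosomal proteins every retrieval library lay below every non-retrieval library, and in the other panels the groups overlapped.

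The markers named above differed between the same groups. With the myelin level of each library as a covariate, the nuclear median was -0.076 with 70 of 94 below 0, and the mitochondrial median was 0.10. Myelin levels did not overlap between the groups, so this fit can hardly tell the covariate and the group apart. The part of the parvalbumin markers in the nuclear members' levels was not tested. Of 4 markers of muscle, the tissue of several complex IV isoforms, 2 were tested and neither was called. Acta1, the skeletal muscle actin, had 234 to 295 counts in retrieval libraries and 242 to 427 in non-retrieval libraries, and Myh4, a fast myosin, had 11 to 19 in retrieval libraries and 17 to 25 in non-retrieval libraries. Ckm had 4 to 8 counts in retrieval libraries and 4 to 14 in non-retrieval libraries, and the troponin Tnnt3 had 0 to 1 in retrieval libraries and 0 to 2 in non-retrieval libraries. Their part in the levels of the isoforms was not tested.

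Complex I (NADH dehydrogenase) takes electrons from NADH and passes them to ubiquinone. Its 36 nuclear members had a median log2 fold change of -0.099, and 33 were below 0. That median was -0.065 under a per-library offset for length and GC content. The 7 nuclear core subunits, which carry the flavin and iron-sulfur clusters, had a median of -0.13, and the 29 accessory subunits had a median of -0.086. For Ndufs1, the largest iron-sulfur subunit, the log2 fold change was -0.15 (SE 0.07, edgeR adjusted p = 0.238).

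Ndufa10, an accessory subunit of the membrane arm, had 101, 97.0, 98.0 and 98.6 CPM in retrieval libraries, against 106, 102, 110.2 and 115 CPM in non-retrieval libraries. All retrieval libraries were below all non-retrieval libraries, by a log2 fold change of -0.14 (SE 0.06, edgeR adjusted p = 0.227). The accessory subunits Ndufb5 and Ndufc1 had values of -0.20 and -0.19 with adjusted p of 0.207 and 0.208 (edgeR). At the other end, Ndufs7, the core subunit that holds the last iron-sulfur cluster, averaged 96.8 ± 11.99 CPM in retrieval libraries and 96.3 ± 9.71 CPM in non-retrieval libraries (SD, n = 4 each). Its log2 fold change was 0.0078 and that of the accessory subunit Ndufa3 was 0.013.

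Ndufa12 (chr10:94198720-94221443 in GRCm38), an accessory subunit of the matrix arm, had the lowest log2 fold change among the nuclear complex I members, -0.27, and behaved unlike the rest. It had 22.1, 55.6, 21.2 and 20.6 CPM in retrieval libraries, against 22.6, 20.7, 42.3 and 57.7 CPM in non-retrieval libraries. Retrieval replicate 2 and non-retrieval replicates 3 and 4 were high and the other 5 libraries lay close together, so the spread was within the groups (SE 0.32, edgeR adjusted p = 0.702). Its within-group SD on the log2 scale was 0.70, where the median of nuclear members was 0.11.

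Complex II (succinate dehydrogenase) links the citric acid cycle to the chain, and all 4 of its genes had negative log2 fold changes. Their mean log2 CPM was 6.78 in each of the 4 retrieval libraries, against 6.85, 6.81, 6.97 and 6.97 in the non-retrieval libraries. Sdhb (chr4:140961203-140979193), the iron-sulfur subunit, had 104, 102, 104 and 105 CPM in retrieval libraries, against 111, 109, 127 and 120.1 CPM in non-retrieval libraries. The groups did not overlap and non-retrieval replicates 3 and 4 were highest, with a log2 fold change of -0.17 (SE 0.06, edgeR adjusted p = 0.150). The membrane anchors Sdhd and Sdhc had -0.14 and -0.13. Sdha, the flavoprotein subunit, averaged 446 ± 15.4 CPM in retrieval libraries and 465 ± 12.7 CPM in non-retrieval libraries (SD, n = 4 each), a log2 fold change of -0.06.

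Complex III (cytochrome bc1) passes electrons from ubiquinol to cytochrome c. Of its 8 nuclear members 5 were below 0, with values between -0.10 and -0.12, and the median was -0.10. It was -0.067 without non-retrieval replicate 3, and -0.067 when gene length and GC content were offset per library. Those below 0 were the core proteins Uqcrc1 (-0.12) and Uqcrc2 (-0.11), the Rieske iron-sulfur protein Uqcrfs1 (-0.11), and the small subunits Uqcr10 (-0.11) and Uqcrh (-0.10). Uqcr10 had 51.5, 52.8, 52.4 and 53.2 CPM in retrieval libraries, against 53.4, 56.2, 56.8 and 60.4 CPM in non-retrieval libraries. The groups did not overlap, though retrieval replicate 4 and non-retrieval replicate 1 were almost equal (edgeR adjusted p = 0.352). Uqcr11, another small subunit, had a log2 fold change of 0.06, averaging 62.7 ± 7.77 CPM in retrieval libraries and 60.003 ± 7.11 CPM in non-retrieval libraries (SD, n = 4 each). Uqcrb, which binds ubiquinone in the complex, averaged 23.2 ± 2.17 CPM in retrieval libraries and 22.99 ± 3.50 CPM in non-retrieval libraries (SD, n = 4 each).

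Complex IV (cytochrome c oxidase) reduces oxygen to water. Its nuclear members had the median nearest to that of all genes, -0.035, with 11 of 17 below 0. That median was -0.062 with upper-quartile factors, -0.022 with the length and GC offset, -0.02 without retrieval replicate 2 and -0.066 without non-retrieval replicate 2. The 17 included low-count tissue isoforms, which lay at both ends. Cox7a1, Cox6b2 and Ndufa4l2 had the highest log2 fold changes, 0.22, 0.17 and 0.14 (SE 0.33, 0.35 and 0.18). Cox4i2 had the lowest, -0.22 (SE 0.25), and Cox6a2 had -0.04 (SE 0.15). A median without these isoforms was not taken. Cox5a, a matrix-side subunit, had 49.0, 51.2, 49.2 and 51.5 CPM in retrieval libraries, against 52.4, 52.8, 59.2 and 58.9 CPM in non-retrieval libraries. The groups did not overlap (log2 fold change -0.15, SE 0.07, edgeR adjusted p = 0.223). Cox7b (-0.15) and the supercomplex factor Cox7a2l (-0.13) were among the 15 members lower at an unadjusted p under 0.05, while Cox5b, Cox6a1 and Cox8a had values of 0.0097 to 0.04.

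The paralogs of complex IV, which in mammals serve different tissues, were compared by level per kilobase of gene model. The ubiquitous isoform Cox6a1 was at 526 CPM per kilobase in retrieval libraries and 514 in non-retrieval libraries, the highest of all nuclear members. Its heart and muscle counterpart Cox6a2 was at 6.91 CPM per kilobase in retrieval libraries and 7.09 in non-retrieval libraries. Cox4i1, the common form of the regulatory subunit IV, was at 301 in retrieval libraries and 327 in non-retrieval libraries, whereas its lung-enriched isoform Cox4i2 was at 1.65 in retrieval libraries and 1.92 in non-retrieval libraries. Cox6b1 was at 139 in retrieval libraries and 142 in non-retrieval libraries, against 0.66 and 0.59 in the same groups for its testis isoform Cox6b2. In CPM, Cox4i1 averaged 467 ± 23.6 in retrieval libraries and 507 ± 36.2 in non-retrieval libraries, and Cox4i2 averaged 1.30 ± 0.35 in retrieval libraries and 1.51 ± 0.35 in non-retrieval libraries (SD, n = 4 each). Their log2 fold changes were -0.12 (SE 0.06) and -0.22 (SE 0.25).

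Members just inside the read minimum were the muscle isoform Cox7a1, with a smallest count of 10, Cox6b2 with 11, and mt-Atp8 with 22. Cox7a1 was at 1.16 CPM per kilobase in retrieval libraries and 0.99 in non-retrieval libraries, against 77.8 and 83.2 in the same groups for its ubiquitous counterpart Cox7a2. Cox7a1 had 0.50, 0.89, 0.73 and 0.36 CPM in retrieval libraries, against 0.56, 0.52, 0.53 and 0.50 CPM in non-retrieval libraries. The retrieval libraries spread on both sides of the non-retrieval ones, and the log2 fold change of 0.22 had an SE of 0.33. The 4 entries left out were Cox7b2, with 2 to 8 counts in retrieval libraries and 5 to 6 in non-retrieval libraries, Cox8b with 0 to 2 in both groups, and Cox8c and another entry named Atp5o, which had no count in any library.

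Complex V (ATP synthase) couples the return of protons to ATP synthesis, and 15 of its 16 nuclear members were below 0, with a median of -0.12. By part of the enzyme the median was -0.12 for the 5 genes of the F1 head and central stalk, -0.15 for the 4 of the peripheral stalk, -0.08 for the 3 genes of the c ring and -0.04 for the 4 nuclear membrane subunits. Atp5b, the catalytic beta subunit, had 1101, 1105, 1054 and 1122 CPM in retrieval libraries, against 1145, 1171, 1252 and 1241 CPM in non-retrieval libraries. The groups did not overlap (log2 fold change -0.13, SE 0.06, edgeR adjusted p = 0.210).

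Atp5g1, Atp5g2 and Atp5g3 encode the same mature c subunit of the proton-driven ring, with different import peptides. Per kilobase, Atp5g3 was the most abundant, at 70.1 CPM in retrieval libraries and 78.3 in non-retrieval libraries. Atp5g2 followed at 27.3 in retrieval libraries and 28.3 in non-retrieval libraries, and Atp5g1 at 17.8 in retrieval libraries and 18.9 in non-retrieval libraries. The order of Atp5g2 and Atp5g1 rests on their gene models of 1675 and 4912 bases. Undivided by length, Atp5g1 was higher, at 87.6 CPM in retrieval libraries and 92.7 in non-retrieval libraries. The CPM of Atp5g2 were 45.7 in retrieval libraries and 47.5 in non-retrieval libraries. Atp5g3 (chr2:73908447-73911326) had 155, 152, 151 and 154 CPM in retrieval libraries, against 169.7, 164, 181 and 168 CPM in non-retrieval libraries. Its retrieval libraries were tightly grouped below the others, and its adjusted p was the smallest of the nuclear members (log2 fold change -0.16, SE 0.06, edgeR adjusted p = 0.134). Atp5g1 and Atp5g2 had -0.08 and -0.05, and their groups overlapped.

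Among other complex V genes, Atp5h of the peripheral stalk had -0.21 (SE 0.08, edgeR adjusted p = 0.200) and Atp5c1, the gamma subunit of the central stalk, had -0.18 (SE 0.07, edgeR adjusted p = 0.163). Atp5l, the membrane subunit g, averaged 39.6 ± 1.79 CPM in retrieval libraries and 40.5 ± 3.49 CPM in non-retrieval libraries (SD, n = 4 each). Atp5k, the membrane subunit e that joins ATP synthase dimers, was the exception to the direction. It had 21.98, 26.2, 22.8 and 24.1 CPM in retrieval libraries, against 22.4, 19.7, 22.3 and 21.9 CPM in non-retrieval libraries. Retrieval replicate 2 was highest and non-retrieval replicate 2 was lowest, and the log2 fold change was 0.14 (SE 0.08, edgeR adjusted p = 0.388).

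All 13 assembly and associated factors, which build the complexes but are not part of them, had negative log2 fold changes, with a median of -0.14. The median was -0.091 without non-retrieval replicate 3 and -0.053 with the myelin covariate. The factors nearest to 0 were Ndufaf4 (-0.02, SE 0.09) and Ndufaf6 (-0.05, SE 0.13), both of complex I. Assembly factor genes were expressed at lower levels than subunit genes. Their median was 8.60 CPM per kilobase in retrieval libraries and 9.14 in non-retrieval libraries. Medians of the nuclear subunits of complexes I to V were 37.2 to 60.65 in retrieval libraries and 37.4 to 65.5 in non-retrieval libraries. Sdhaf1, which helps insert iron-sulfur clusters into Sdhb, had 3.06, 2.52, 3.60 and 3.62 CPM in retrieval libraries, against 4.19, 3.22, 3.74 and 5.18 CPM in non-retrieval libraries. Its log2 fold change of -0.36 was the lowest of all nuclear members, and the groups overlapped through non-retrieval replicate 2 (SE 0.17, edgeR adjusted p = 0.279). Sdhaf3, which acts with Sdhaf1, had -0.21 (SE 0.10, edgeR adjusted p = 0.284).

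Sdhaf2, which attaches the flavin to Sdha, had 32.2, 29.9, 32.2 and 31.9 CPM in retrieval libraries, against 33.2, 32.9, 40.0 and 34.7 CPM in non-retrieval libraries. Ndufaf2, a complex I factor, had 11.3, 10.8, 11.5 and 9.85 CPM in retrieval libraries, against 11.5, 12.3, 11.97 and 12.4 CPM in non-retrieval libraries. The groups did not overlap for either, with log2 fold changes of -0.16 and -0.15 and edgeR adjusted p of 0.289 and 0.385.

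**Figure D3:**
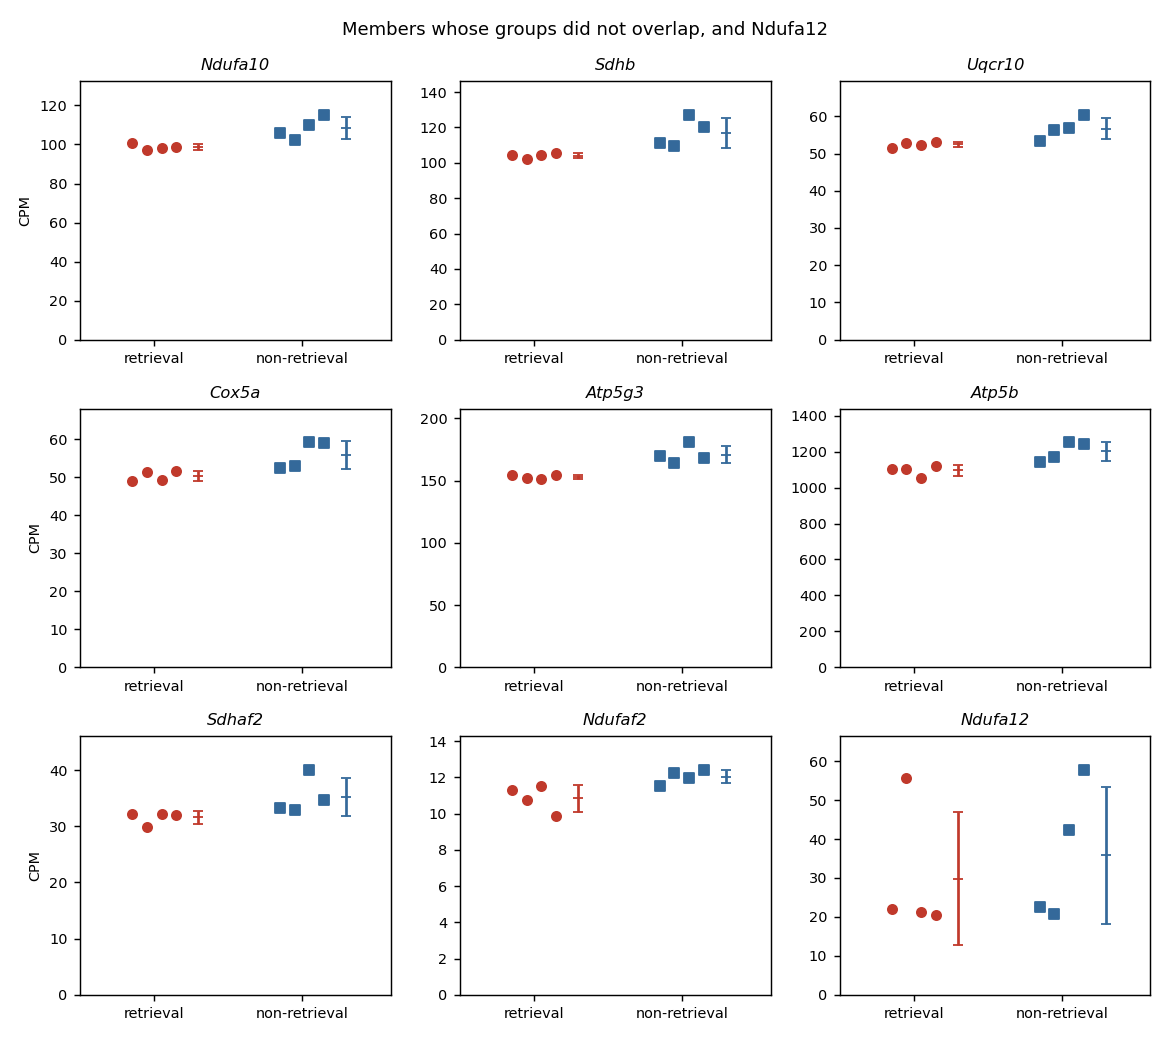
CPM of the 8 members whose retrieval libraries (circles, left) all lay below their non-retrieval libraries (squares, right), and of Ndufa12, with the mean ± SD of 4 libraries beside the points; each y axis starts at 0. The 8 members differed by a log2 fold change of -0.11 to -0.17, and Ndufa12 had 3 high libraries spread over both groups.

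The 13 mitochondrial members are transcribed as long polycistronic RNAs and cover the hydrophobic cores of complexes I, III, IV and V. They took 2.70%, 2.66%, 3.22% and 2.94% of all counts in the retrieval libraries, against 3.22%, 2.83%, 2.64% and 2.86% in the non-retrieval libraries. The ranges of the groups coincided. All 94 nuclear members together took 0.873%, 0.891%, 0.857% and 0.893% in retrieval libraries, against 0.926%, 0.884%, 0.974% and 0.995% in non-retrieval libraries, where only non-retrieval replicate 2 reached down into the retrieval range.

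By level per kilobase, the mitochondrial genes fell into separate ranges. mt-Co1, the catalytic subunit of complex IV, was at 7350 CPM per kilobase in retrieval libraries and 7291 in non-retrieval libraries. mt-Cytb, the cytochrome b of complex III, followed at 4067 in retrieval libraries and 4009 in non-retrieval libraries, and mt-Nd1, mt-Nd2, mt-Nd5, mt-Nd4 and mt-Nd6 of complex I lay between 3590 and 1285 in retrieval libraries and between 3708 and 1426 in non-retrieval libraries. The other 6, which are neighbours on the mitochondrial genome, were far lower: mt-Co2 had 246 CPM per kilobase in retrieval libraries and 156 in non-retrieval libraries, and mt-Nd3 had 68.8 in retrieval libraries and 101 in non-retrieval libraries.

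Of those 6 genes, 5 matched a copy of nearly full length in a stretch of chromosome 1, annotated as a run of separate pseudogenes, and reads from such a stretch can match both places. Stretches of transcript from the GENCODE M21 annotation (GRCm38) show how close these copies are, with capitals marking the bases that differ between the members of a pair. mt-Nd3, at positions 9459 to 9806 of the mitochondrial genome, and Gm28438, at chr1:24612775-24613119 on the minus strand, are shown from their first base. mt-Cytb, at positions 14145 to 15288, and its diverged copy Gm11410, at chr4:80003989-80005131 on the plus strand, are shown over bases 2 to 81 of mt-Cytb.
mt-Nd3: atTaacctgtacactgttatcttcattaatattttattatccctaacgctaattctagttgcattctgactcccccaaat
Gm28438: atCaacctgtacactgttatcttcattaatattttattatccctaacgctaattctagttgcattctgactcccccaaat
mt-Cytb: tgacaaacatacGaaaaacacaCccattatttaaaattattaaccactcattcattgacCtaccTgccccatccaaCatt
Gm11410: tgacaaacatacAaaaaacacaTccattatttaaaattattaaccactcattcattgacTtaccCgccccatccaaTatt
Gm28438 differed from mt-Nd3 over 345 aligned bases by the substitution T3C alone, counted from the first base of the transcript, whereas the Gm11410 alignment with mt-Cytb had 81 mismatches over 1142 bases.

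Copies of 4 others of the 6 genes matched at 100% identity: Gm28661 over 681 of the 684 bases of mt-Co2, Gm10925 over 678 of the 681 bases of mt-Atp6, Gm28437 over 783 of the 784 bases of mt-Co3 and Gm10222 over 294 of the 297 bases of mt-Nd4l. No entry of the table matched mt-Atp8, which lies between mt-Co2 and mt-Atp6 on the mitochondrial genome and overlaps the start of mt-Atp6. Part of mt-Nd4 (63.6%) and of mt-Co1 (31.3%) was also covered on chromosome 1. Reads were counted on these copies: Gm28661 had 60.05 to 98.4 CPM in retrieval libraries and 55.1 to 90.3 CPM in non-retrieval libraries, and the ratio of mt-Co2 to it ran from 1.35 to 3.37 over all libraries. For mt-Co1 and its partial copy Gm29216 that ratio was 219 to 1189. On chromosome 2, Gm13340 matched all of mt-Co1 at 97.6% identity. It had 4.05 to 9.85 CPM in retrieval libraries and 3.50 to 6.16 CPM in non-retrieval libraries. Also on chromosome 2, Gm13341 matched all of mt-Co2 (95.9% identity) and Gm13339 matched 49.1% of mt-Nd2 (96.7% identity). Neither exceeded 1.46 CPM in any library. Gm11410 had no count in any library. The setting used for reads that match more than 1 place is not given in the sources used here. Levels and fold changes of the matched genes among the 6 are therefore uncertain. Only annotated transcripts were aligned, so a copy of mt-Atp8 outside the annotation was not looked for. The copies of its neighbours mt-Co2 and mt-Atp6 lie at chr1:24614885-24615565 and chr1:24613974-24614651, and the bases between these were not read. The level and fold change of mt-Atp8 are therefore uncertain as well.

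Spread followed the same division. The within-group SD on the log2 scale had a median of 0.86 over the 6 neighbours from mt-Co2 to mt-Nd4l and 0.14 over the 7 others, including the partly covered mt-Co1 and mt-Nd4, against 0.15 over all tested genes. mt-Co3, the third core subunit of complex IV, had 52.0, 127, 129.6 and 53.3 CPM in retrieval libraries, against 29.2, 159, 84.7 and 32.7 CPM in non-retrieval libraries. Each group held high and low libraries, with a log2 fold change of 0.25 (SE 0.41, edgeR adjusted p = 0.801). mt-Nd4l, a small membrane subunit of complex I, had a log2 fold change of -0.59 (SE 0.43, edgeR adjusted p = 0.491).

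mt-Co2, the subunit that receives electrons from cytochrome c, had the smallest p of all members. It had 243, 127, 209.7 and 93.5 CPM in retrieval libraries, against 91.3, 135, 111 and 89.4 CPM in non-retrieval libraries. Retrieval replicates 1 and 3 were high, replicates 2 and 4 lay within the non-retrieval range, and the log2 fold change was 0.66 (SE 0.21, edgeR adjusted p = 0.10004). Without retrieval replicate 4 the log2 fold change was 0.86 and the gene was called (edgeR adjusted p = 0.0104). It was also called with the myelin level as a covariate (log2 fold change 1.17, edgeR adjusted p = 0.0357), though that level did not overlap between the groups. Counted together with Gm28661, mt-Co2 averaged 241 ± 81.9 CPM in retrieval libraries and 175 ± 36.3 CPM in non-retrieval libraries (SD, n = 4 each), with an edgeR adjusted p of 0.1704 at a log2 fold change of 0.46.

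mt-Nd3 had 26.4, 20.6, 25.5 and 23.3 CPM in retrieval libraries, against 24.0, 22.6, 21.2 and 73.3 CPM in non-retrieval libraries. Its log2 fold change of -0.56 (SE 0.29, edgeR adjusted p = 0.321) came with non-retrieval replicate 4, and without that library it was 0.08. mt-Atp6, a membrane subunit of complex V, had 65.8, 54.1, 252.5 and 199 CPM in retrieval libraries, against 88.1, 168, 78.2 and 205 CPM in non-retrieval libraries. Its groups covered the same range (log2 fold change 0.08), and mt-Atp8 averaged 2.37 ± 0.97 CPM in retrieval libraries and 1.84 ± 1.13 CPM in non-retrieval libraries (SD, n = 4 each).

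The 7 mitochondrial genes outside the run from mt-Co2 to mt-Nd4l had log2 fold changes between -0.15 and 0.02. mt-Co1 averaged 11356 ± 1001 CPM in retrieval libraries and 11265 ± 793 CPM in non-retrieval libraries, and mt-Cytb averaged 4653 ± 449 CPM in retrieval libraries and 4586 ± 316 CPM in non-retrieval libraries (SD, n = 4 each). Log2 fold changes of mt-Co1, mt-Cytb, mt-Nd2, mt-Nd4 and mt-Nd5 lay between 0.01 and 0.02, each with an SE of 0.07 to 0.09, and that of mt-Nd1 was -0.05. mt-Nd6, the member encoded on the opposite strand, had -0.15 (SE 0.10, edgeR adjusted p = 0.435), averaging 667 ± 84.2 CPM in retrieval libraries and 740 ± 100 CPM in non-retrieval libraries (SD, n = 4 each). Its annotated end overlaps that of mt-Nd5, and without the strand setting of the counting its reads cannot be told apart from antisense RNA.

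**Figure D4:**
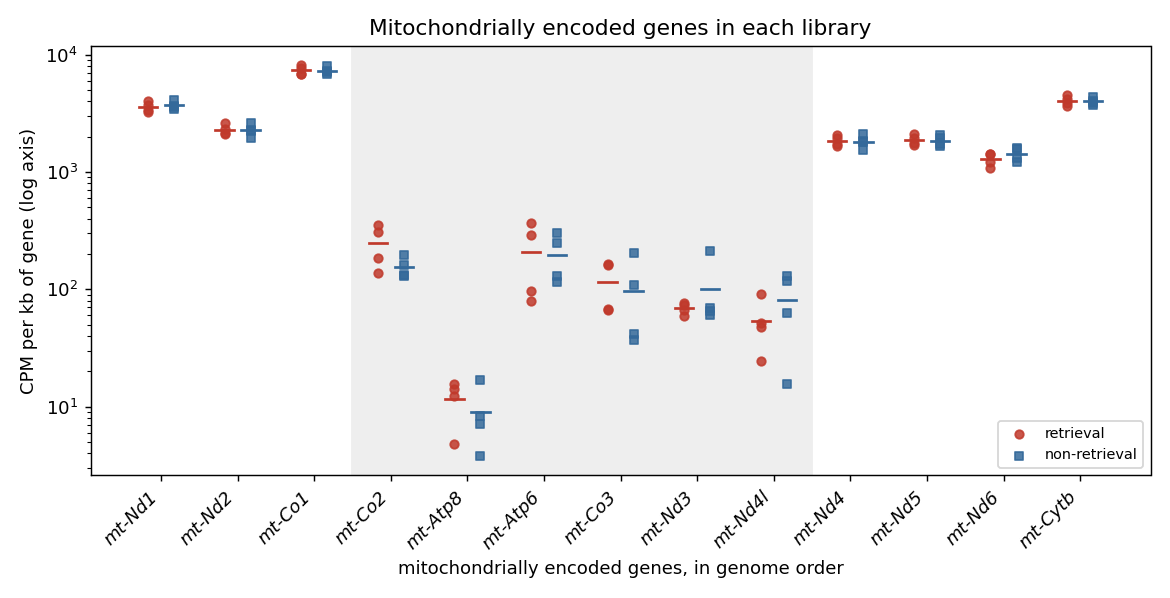
Level of each mitochondrially encoded gene in each library, in CPM per kilobase of gene on a log axis, in genome order, with retrieval libraries (circles) left of non-retrieval libraries (squares) and a bar at the mean of 4 libraries. The shaded genes are the neighbours mt-Co2 to mt-Nd4l, of which all but mt-Atp8 matched a chromosome 1 copy of nearly full length, and they were lower and more spread (median within-group SD 0.86 on the log2 scale) than the 7 others (0.14).

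Other large nuclear-encoded machines were set beside the nuclear members. The 77 mitochondrial ribosomal protein genes (Mrpl and Mrps) had a median log2 fold change of -0.089 with 73 below 0, and none was called. Their mean log2 CPM lay at 4.36 to 4.40 in retrieval libraries and at 4.43 to 4.52 in non-retrieval libraries, with no overlap. The 48 proteasome genes (Psm) had -0.07 with 42 below 0, and -0.043 without non-retrieval replicate 3. The 96 cytosolic ribosomal protein genes had -0.014 with 56 below 0 and 1 called lower, and a median above 0 without retrieval replicate 1 (0.0064), without non-retrieval replicate 4 (0.0063) and with the length and GC offset (0.0099). A direction below 0 was therefore found in most of the mitochondrial ribosomal and proteasome genes as well, and the difference between these groups and the oxidative phosphorylation genes was not tested.

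Of a list of 93 other genes of the pathway (further assembly factors, carriers, coenzyme Q synthesis, mitochondrial transcription and its regulators), 91 were found and 89 tested. Their median was -0.086 with 73 below 0, and 1 (1.12%) was called in each direction, where 3.67% of all tested genes were called higher and 0.902% lower. Pprc1, a coactivator of the PGC-1 family that drives nuclear genes for respiration, had 27.6, 31.2, 28.0 and 32.0 CPM in retrieval libraries, against 22.9, 23.9, 22.6 and 22.3 CPM in non-retrieval libraries. The groups did not overlap, and Pprc1 rose in retrieval libraries by a log2 fold change of 0.37 (SE 0.08, edgeR adjusted p = 0.0103). Ucp3, a mitochondrial carrier of the uncoupling protein family, had 1.48, 2.20, 1.46 and 1.63 CPM in retrieval libraries, against 2.99, 2.78, 3.53 and 2.69 CPM in non-retrieval libraries. It fell in retrieval libraries, again without overlap, by a log2 fold change of -0.82 (SE 0.19, edgeR adjusted p = 0.0197).

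At an unadjusted p under 0.05, 3 genes of that list were higher (3.37%, against 11.2% of all tested genes) and 16 lower (17.98%, against 7.27%). The higher ones were Pprc1, Ucp2 and Ppargc1b. Ucp2, of the same family as Ucp3, thus moved opposite to it, by a log2 fold change of 0.26 (SE 0.10). It averaged 14.1 ± 1.49 CPM in retrieval libraries and 11.7 ± 1.11 CPM in non-retrieval libraries (SD, n = 4 each). Ucp2 was not called, and its groups overlapped. Ppargc1b, another PGC-1 coactivator, had 11.5 ± 1.00 CPM in retrieval libraries and 8.98 ± 1.62 CPM in non-retrieval libraries (SD, n = 4 each, edgeR adjusted p = 0.105). Ppargc1a, also of that family, went the other way without reaching that threshold. It averaged 42.2 ± 3.51 CPM in retrieval libraries and 47.1 ± 4.31 CPM in non-retrieval libraries (SD, n = 4 each). Its log2 fold change was -0.16 (SE 0.08, edgeR adjusted p = 0.311). Of the 16 lower genes, the assembly factors Sco1 (-0.37), Uqcc3 (-0.32) and Cox18 (-0.31) had the smallest p after Ucp3 (edgeR adjusted p = 0.0779, 0.0929 and 0.1003). Others were the ADP/ATP carriers Slc25a4 (-0.16) and Slc25a5 (-0.13), the outer membrane channels Vdac1 (-0.12) and Vdac2 (-0.17), and the ATP synthase inhibitor Atpif1 (-0.19). None of the 16 but Ucp3 passed the adjusted threshold.

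Some features that did not enter the choice of members were shared by them. Nuclear members had short gene models, with a median of 1688 bases against 4032 over all tested genes, and a GC content of 50.01% against 49.7%; the mitochondrial members had 37.1%. Across the 94 nuclear members, log2 fold change had a Pearson r of -0.355 with log2 gene length, 0.264 with GC content and -0.191 with mean log2 CPM, given as a description over genes measured in the same libraries. With an offset for length and GC content the nuclear median was -0.073, with 79 of 94 below 0. The same offset placed the median of all genes at -0.028 and that of the mitochondrial members at -0.052, so the nuclear members lay closer to both than without it.

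Promoters were read for 78 of the 94 nuclear members from the RefSeq annotation (GRCm38.p6), 250 bases before to 50 bases after the start. Searches on both strands looked for the core of the NRF1 site (GCGCATGC), of the ETS site that GABP binds (CCGGAAG) and of the YY1 site (AAGATGGC), factors known to drive nuclear respiratory genes. Excerpts from members at either end of their complex are given, from Sdhb at chr4:140961190-140961309 on the plus strand, Atp5k at chr5:108434356-108434475 and Uqcr11 at chr10:80406793-80406912 on the minus strand, and Ndufs7 at chr10:80249417-80249498 on the plus strand. They are written 5′ to 3′ in the direction of the gene, with capitals marking the matches.
Sdhb: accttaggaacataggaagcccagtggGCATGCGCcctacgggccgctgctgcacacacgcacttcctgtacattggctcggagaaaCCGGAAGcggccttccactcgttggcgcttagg
Atp5k: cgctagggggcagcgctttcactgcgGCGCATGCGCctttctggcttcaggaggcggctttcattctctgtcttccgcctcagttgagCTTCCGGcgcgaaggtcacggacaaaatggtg
Uqcr11: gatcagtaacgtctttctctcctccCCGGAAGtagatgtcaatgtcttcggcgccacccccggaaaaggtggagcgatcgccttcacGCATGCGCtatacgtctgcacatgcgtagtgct
Ndufs7: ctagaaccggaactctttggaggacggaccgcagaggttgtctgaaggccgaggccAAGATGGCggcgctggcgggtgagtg
In Atp5k the NRF1 core occurs on both strands in overlapping form. Sdhb, Atp5k and Uqcr11 each hold the NRF1 and the ETS core, and Ndufs7 holds the YY1 core. Holding a match was a condition for an excerpt to be shown. Over all 78 promoters, 37 (47.4%) held any of the 3 cores.

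The NRF1 core was in 12 of 78 promoters (15.4%), against 5.63% of 11295 tested protein-coding genes and 3.05% of all 27025 genes of the promoter table. The ETS core was in 21 (26.9%), against 18.1% and 9.93%, and the YY1 core in 11 (14.1%), against 4.79% and 3.19%. By complex, the YY1 core was in 7 of 32 promoters of complex I (21.9%) and in none of 12 of complex IV, with 21.4% in complex V. Among 68 promoters of mitochondrial ribosomal genes, 11.8% held the NRF1 core, 36.8% the ETS core and 17.6% the YY1 core. The log2 fold change had a median of -0.07 in members with the NRF1 core and -0.11 without it, -0.13 with the ETS core and -0.10 without it, and -0.11 with the YY1 core and -0.10 without it. A match of these letters does not show that a factor binds there.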

How the data were processed

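RNA-seq of 8 mPFC libraries (4 retrieval, 4 non-retrieval) was used as raw read counts per gene, which the authors deposited as 1 table without normalization. Per the submitters' processing notes, reads were handled with HISAT2 2.0.5 and featureCounts 1.5.0-p3 on GRCm38; the sources used here do not give strand or multi-mapping settings. Totals of 25013503 to 29547978 counts limit precision by counting error, and p-values measure the spread between pools of mice.

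Genes were filtered with filterByExpr, scaled with TMM and compared with edgeR 4.0.16 (R 4.3.3; quasi-likelihood F test, two-sided, Benjamini-Hochberg over 16745 genes, threshold 0.05), as tested on simulated data. The changes planted in the simulated data were larger than the log2 fold change of any nuclear member. Whether the test would call shifts as small as theirs was therefore not tested. Summary levels are means of log2 CPM with a prior count of 2. Alternatives used DESeq2 1.42.0 and limma-voom 3.58.1, other scalings and filters, thinned counts, an offset for length and GC content (available for 99.9% of tested genes; loess span 0.5), a replicate block, a myelin covariate and left-out libraries. Mitochondrial transcripts were aligned to all GENCODE M21 transcripts with blastn 2.17.0; copies of nuclear members elsewhere in the genome were not analysed here.

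Members and lists were chosen with earlier results of these data known. The text names all mitochondrial members, the 2 highest and 2 lowest nuclear members of each complex, isoform pairs, members nearest the read minimum and called genes of the pathway list. Members named for groups that did not overlap or for a small unadjusted p, and uncalled pathway genes, were chosen after their values were seen. Ndufa4 and Ndufa4l2 were counted with complex IV, and Atp5s with the assembly and associated factors. Marker lists of astrocytes, microglia, endothelium, striatal and cortical projection neurons, GABAergic interneurons, muscle, choroid plexus and blood were also read. In that order, 0 of 7, 0 of 6, 0 of 5, 0 of 9, 0 of 7, 1 of 6, 0 of 2, 0 of 1 and 1 of 5 tested genes were called. Those 2 calls, Pvalb and Hbb-bs, were lower, and Pvalb is the same gene that is counted among the parvalbumin markers. The values of 1 member are not reported here.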

Additional observations from a re-analysis of the deposited data

Results flagged for a closer look

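In 94 groups of 4 libraries (47 named members in each group), 5 held a library farther from the other 3 than a Dixon test at 95% allows, and chance gives about 1 in 20 such groups. mt-Nd3 had 73.3 CPM in non-retrieval replicate 4, against 21.2 to 24.0 CPM in the other non-retrieval libraries. Ndufa12 had 55.6 CPM in retrieval replicate 2, against 20.6 to 22.1 CPM in the other retrieval libraries. Sdhc had 58.2 CPM in retrieval replicate 1, against 52.7 to 53.6 CPM in the others of its group. Atp5k had 19.7 CPM in non-retrieval replicate 2, against 21.9 to 22.4 CPM in the other non-retrieval libraries. Sdhaf3 had 7.67 CPM in retrieval replicate 2, against 9.49 to 9.65 CPM in the others of its group. What set these libraries apart was not tested.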

How the results depend on the processing

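The count of members called was 0 in both directions under other scalings, the stricter read minimum, DESeq2, limma-voom, thinned counts, an adjusted p under 0.1 and (added after seeing the data) mitochondrial genes summed with their chromosome 1 copies. With no filter on low counts, 2 members were higher (mt-Co2 and mt-Co3) and 3 lower (mt-Nd3, mt-Nd4l and Ndufa12). With the offset for length and GC content, 2 were lower (Ndufs1 and mt-Nd6). With the myelin covariate, 1 was higher (mt-Co2). With left-out libraries, 0 to 1 were higher (mt-Co2 without retrieval replicate 4) and 0 lower. The replicate number as a block gave 2 higher (mt-Co2 and mt-Co3) and 6 lower (among them Atp5c1, Atp5f1, Atp5g3, Ndufb5 and Sdhb). The cause of these differences was not tested. The numbers could not be taken as pairs: deviations of same-numbered libraries correlated at 0.221, 0.085, 0.0268 and 0.0996, though every library correlated best with its own number, a hint from the data and not the design.

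The nuclear median stayed between -0.07 and -0.13 under every setting run, and the mitochondrial median between -0.05 and 0.10, with a sign that changed under upper-quartile factors, the length and GC offset and 3 left-out libraries. Over all genes, 766 were called, against 1619 with limma-voom, 1323 with the length and GC offset (733 higher and 590 lower, against 615 and 151), 1791 with the replicate block, 120 with the myelin covariate, 1173 at an adjusted p under 0.1 and 330 to 1360 with left-out libraries.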
